A study of Homo sapiens with 8 samples.

Results

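Cholesterol synthesis, sterol sensing, transport and export genes were followed in the near-haploid human leukaemia line KBM7. The set held 29 genes named by their function: 18 enzymes of cholesterol synthesis, 5 genes of sterol sensing, 3 genes of transport within the cell, and ABCA1, ABCG1 and MYLIP, which serve export and receptor turnover. Every probe set that the platform annotation gives to 1 of these genes was taken, which made 76 single-gene probe sets. Where a gene had several, the brightest on average stood for it. This gave values for 27 of the 29 genes, of 18132 genes measured in all, and all 27 were among the 11529 genes whose log2 intensity reached 6 on at least 1 array and that were compared. FDFT1, which makes squalene, was not analysed here, and CYP51A1, which removes a methyl group from lanosterol, was represented only by probe sets shared with LRRD1 and is described apart.

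A cell builds cholesterol from acetyl-CoA, first to mevalonate and isoprenoid units and then through squalene and lanosterol. When sterols in the endoplasmic reticulum are scarce, the escort protein SCAP carries the transcription factor SREBP-2, the product of SREBF2, to the Golgi, where it is cleaved and released to switch on the enzymes of this pathway. When sterols are plentiful, the INSIG proteins hold SCAP back, and oxysterols activate the liver X receptors (LXR), which switch on the exporters ABCA1 and ABCG1 and MYLIP, a ubiquitin ligase that marks the LDL receptor for breakdown. Synthesis and uptake genes on one side and export genes on the other are therefore known as opposed programmes, above all in macrophages and liver. Here the 16 measured enzymes with INSIG1 and STARD4, both known SREBP-2 targets, are called the SREBP-2-type genes, 18 in number.

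RNA was hybridised to Affymetrix PrimeView arrays, 1 array for each sample. KBM7 cells with a gene-trap insertion in JAK2, a kinase of the IFN-gamma receptor, were either kept for 6 hours with 100 ng/ml IFN-gamma or left unstimulated, and so were wild-type (WT) KBM7 cells, with WT replicate 1 as the unstimulated control. KBM7 cells with an insertion in TNFRSF1A, the main TNF-alpha receptor, were either kept for 6 hours with 10 ng/ml TNF-alpha or left unstimulated, and so were WT cells, with WT replicate 2 as the unstimulated control. Each mutant is thus 1 line on 2 arrays, so that the insertion and any other trait of that line cannot be told apart, and WT replicate and experiment cannot be told apart either. Nothing in the labels says whether the WT samples came from separate cultures.

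A difference here is the log2 difference of 2 arrays, called at 2-fold with no p-value, since no condition other than unstimulated WT had more than 1 array. The SD of the difference between the WT replicates over all genes compared, 0.38, served as the spread, and it holds array noise and the difference between experiments together. A value below the upper quartile of the array's background probe sets, which lay between 5.76 and 6.04 on the log2 scale, was taken as in the background range. JAK2 stood at 5.32 and 5.08 in JAK2 mutant cells with and without IFN-gamma, both in the background range, against 6.81 and 6.28 in the matching WT cells. TNFRSF1A stood at 6.55 and 6.56 in TNFRSF1A mutant cells with and without TNF-alpha, against 9.23 and 9.36 in the matching WT cells. The sources do not place the probes relative to the insertions. Of 7 blood progenitor and myeloid markers measured, 5 (PTPRC, KIT, CD34, MYB and CEBPA) were above the background range on all 8 arrays, while SPI1 was in it on all 8 and MPO on 1. Among markers of other cells, CD3D (8.71 to 10.03), KRT18 and HBB were above the background range on all arrays, and CD3E, MS4A1, COL1A1, COL1A2, EPCAM and ALB were in it on all. Since these are bulk samples, fewer cells expressing a gene and less of its RNA per cell cannot be told apart.

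The promoters of the genes on which the results turn are shown first, because both programmes are known to be read from short elements close to the start. SREBP-2 binds sterol regulatory elements (SRE) and is known to need the factor NF-Y, which binds CCAAT, while LXR binds paired short sites. The sequences are the 250 bases before the RefSeq start on GRCh38.p14, 5′ to 3′ on the gene's strand. Capitals mark CCAAT on either strand in the synthesis and transport genes HMGCS1, MSMO1 and STARD4, the SRE-type letters and CCAAT in SREBF2, and the LXRE-type letters in ABCA1.
HMGCS1 (chr5:43313413-43313662, minus strand): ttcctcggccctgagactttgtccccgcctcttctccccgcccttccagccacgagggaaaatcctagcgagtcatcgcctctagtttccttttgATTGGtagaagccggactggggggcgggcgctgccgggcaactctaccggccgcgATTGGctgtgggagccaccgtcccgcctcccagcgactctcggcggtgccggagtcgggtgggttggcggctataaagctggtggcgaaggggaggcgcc
MSMO1 (chr4:165327419-165327668, plus strand): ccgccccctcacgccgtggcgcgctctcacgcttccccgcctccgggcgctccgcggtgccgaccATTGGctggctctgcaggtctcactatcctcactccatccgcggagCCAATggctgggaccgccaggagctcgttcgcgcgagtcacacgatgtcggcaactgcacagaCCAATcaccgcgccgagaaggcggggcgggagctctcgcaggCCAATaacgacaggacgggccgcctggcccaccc
STARD4 (chr5:111512536-111512785, minus strand): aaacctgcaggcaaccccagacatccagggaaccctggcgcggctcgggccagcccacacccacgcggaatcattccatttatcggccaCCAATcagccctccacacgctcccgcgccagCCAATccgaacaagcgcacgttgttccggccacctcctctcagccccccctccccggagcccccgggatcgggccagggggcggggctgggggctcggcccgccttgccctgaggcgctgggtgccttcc
SREBF2 (chr22:41832855-41833104, plus strand): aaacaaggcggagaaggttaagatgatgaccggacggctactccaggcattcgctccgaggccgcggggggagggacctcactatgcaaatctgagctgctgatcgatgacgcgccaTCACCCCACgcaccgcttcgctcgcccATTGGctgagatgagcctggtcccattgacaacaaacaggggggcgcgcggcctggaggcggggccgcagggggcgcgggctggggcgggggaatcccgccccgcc
ABCA1 (chr9:104928156-104928405, minus strand): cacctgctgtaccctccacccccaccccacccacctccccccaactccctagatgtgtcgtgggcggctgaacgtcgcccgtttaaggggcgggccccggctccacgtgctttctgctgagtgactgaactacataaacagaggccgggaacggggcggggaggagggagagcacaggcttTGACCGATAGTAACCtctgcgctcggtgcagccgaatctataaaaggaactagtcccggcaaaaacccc

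Both strands of each RefSeq window of 250 bases before to 50 bases after a start were searched. CCAAT stood in at least 1 window of 15 of the 16 SREBP-2-type genes that had a window, 13 of 14 enzymes among them, against 39.7% of the 27305 genes in the table and 34.6% of its 35116 windows. In HMGCS1 it stood on the reverse strand 155 and 100 bases before the start, and MSMO1 held 4 copies. The SRE-type letters TCACNCCAC stood in 1 of the 25 members searched, SREBF2, beside 1.39% of the genes in the table and 1.13% of all windows. In SREBF2 they began 133 bases before the start. The LXRE-type letters were GGTNA and GGTCA with 5 bases between them. Among those members they stood only in ABCA1, beside 0.3% of the genes in the table and 0.239% of all windows. In ABCA1 they lay on the reverse strand, with their first base 69 bases before the start. These letters were chosen with the known element of ABCA1 in view. ACAT2, SQLE, FDFT1 and ABCG1 had no window in the table. A match is a description of the sequence and not a site shown to be bound.

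Among the 27 members the largest differences lay in the exporters ABCA1, in JAK2 mutant cells, and ABCG1, in TNFRSF1A mutant cells. ABCA1, which moves cholesterol and phospholipid to lipid-poor apolipoprotein A-I, was 2.03 higher on the log2 scale in JAK2 mutant cells than in WT replicate 1, a 4.09-fold difference, and was in the background range in TNFRSF1A mutant cells. ABCG1, which passes cholesterol on to HDL particles, was 1.02 lower in JAK2 mutant cells than in WT replicate 1 and at least 1.96 lower in TNFRSF1A mutant cells than in WT replicate 2. Of the SREBP-2-type genes, HMGCS1 was called lower in JAK2 mutant cells, none in TNFRSF1A mutant cells, and MSMO1 and STARD4 were called higher in WT replicate 2 than in WT replicate 1. No member was called after either cytokine in any line.

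**Figure D1:**
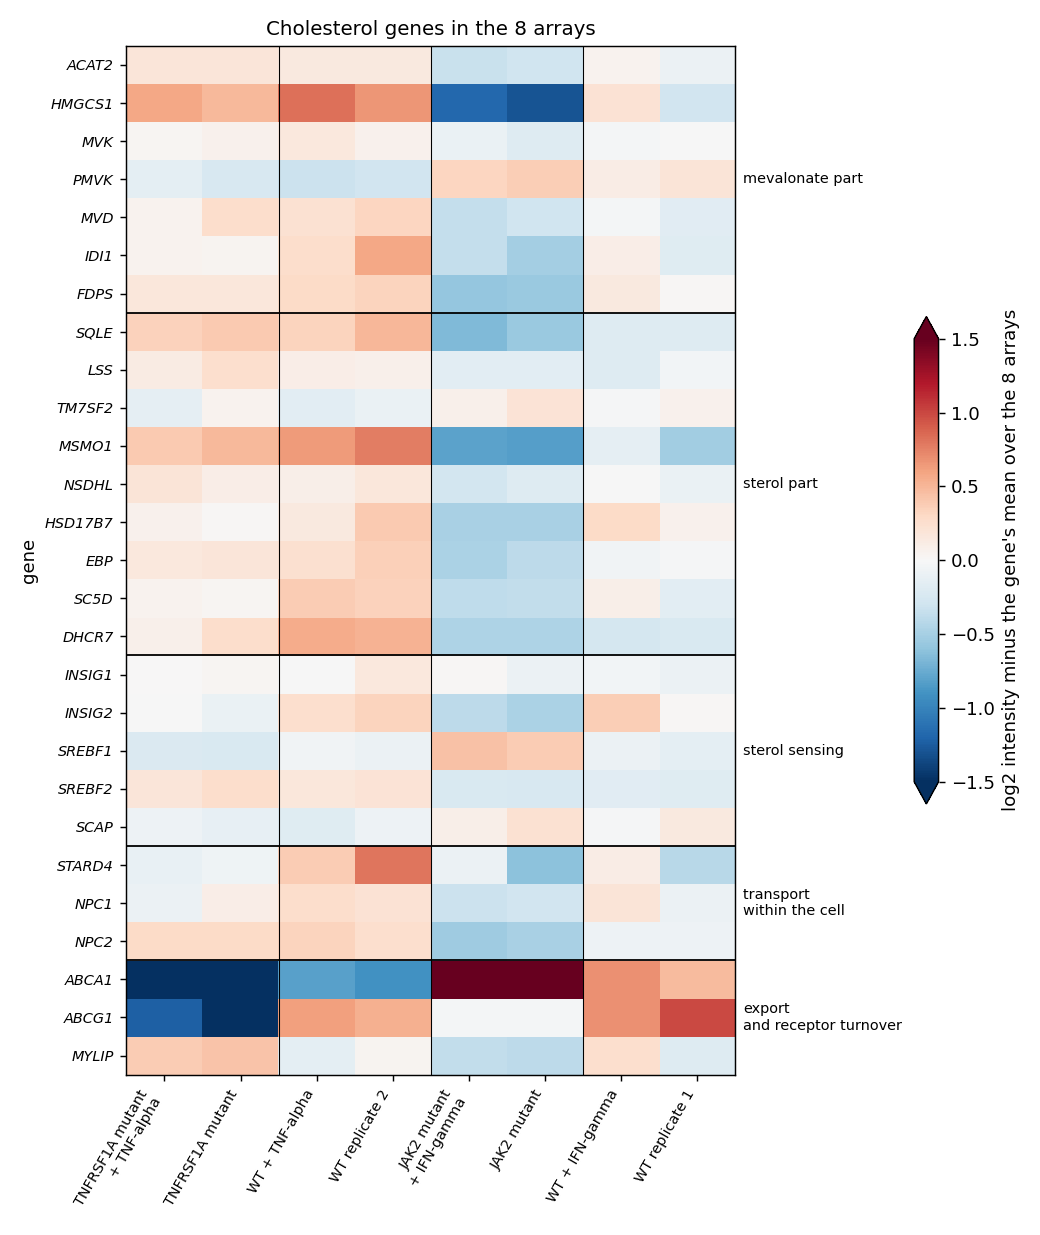
Log2 intensity of the 27 measured genes on the 8 arrays (columns), each as the difference from that gene's mean over the arrays, with rows grouped by role and the colour scale cut at 1.5 in each direction. The JAK2 mutant columns are blue for most synthesis enzymes and dark red for ABCA1 (9.49 and 9.31), and the TNFRSF1A mutant columns are dark blue for ABCA1 and ABCG1.

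ABCA1 was read by 1 informative probe set, whose linear intensity was 635 in unstimulated JAK2 mutant cells, against 155 in WT replicate 1. On the log2 scale it was 9.49 with IFN-gamma and 9.31 unstimulated in JAK2 mutant cells, and 7.48 with IFN-gamma and 7.28 in WT replicate 1. It was 4.43 with TNF-alpha and 4.54 unstimulated in TNFRSF1A mutant cells, and 5.99 with TNF-alpha and 5.90 in WT replicate 2. JAK2 mutant arrays were thus the highest, WT arrays of the IFN-gamma experiment came next, and WT arrays of the TNF-alpha experiment stood at the edge of the background range. Both TNFRSF1A mutant arrays were in that range, where values have no order. Because the TNFRSF1A mutant arrays and WT replicate 2 were in the background range, no fold is given between them. Against WT replicate 1, of the other experiment, ABCA1 was at least 1.26 lower in unstimulated TNFRSF1A mutant cells. The other 2 probe sets of ABCA1 stayed between 3.24 and 4.47, in the background range on all arrays. With the mean of all 3 in place of the brightest, the JAK2 mutant difference was 0.65.

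The difference of ABCA1 between JAK2 mutant and WT cells was 2.01 when both arrays had IFN-gamma, close to the 2.03 without it. A limma fit with 1 term for each line and experiment and 1 for each cytokine, called the additive fit below, gave 2.02 for it (SE 0.07, adjusted p = 0.000227, Benjamini-Hochberg over all genes compared). That fit treats the stimulated and unstimulated arrays of a line as its replicates, once a shared response to each cytokine is taken out. Its spread is therefore the difference in cytokine response between mutant and WT cells. Its p-values do not measure the spread between independent clones. In every comparison with unstimulated WT cells, the limma fit of the 7 conditions takes the mean of both WT replicates as the control. Its spread comes from that WT pair, with 1 residual degree of freedom. Against that other control it gave 2.72 for ABCA1, which it did not call.

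ABCG1 had a log2 intensity of 7.41 with IFN-gamma and 7.42 unstimulated in JAK2 mutant cells, and 8.12 with IFN-gamma and 8.43 in WT replicate 1. In the other experiment it had 6.21 with TNF-alpha and 5.90 unstimulated in TNFRSF1A mutant cells, and 8.06 with TNF-alpha and 7.97 in WT replicate 2. The 4 WT arrays were the highest, JAK2 mutant arrays lay below them and TNFRSF1A mutant arrays lay lowest. In the additive limma fit the difference was -0.86 for JAK2 mutant cells (SE 0.10, adjusted p = 0.00694) and -1.96 for TNFRSF1A mutant cells (SE 0.10, adjusted p = 0.00175). The latter includes the unstimulated TNFRSF1A mutant value, which was in the background range. The JAK2 mutant difference was -0.71 with cytokine on both arrays and -0.56 against WT replicate 2, under 2-fold in both readings. Over the 4 probe sets of ABCG1 that rose above the background range, the differences ran from -1.17 to -0.50 in JAK2 mutant cells and from -2.60 to -0.43 in TNFRSF1A mutant cells, the same direction in all. Each of the 4 was in the background range on the unstimulated TNFRSF1A mutant array, so that only the direction is read there and not the size.

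MYLIP, the ligase that marks the LDL receptor, stood highest in the line in which ABCG1 was lowest. Its log2 intensity was 9.81 with IFN-gamma and 9.79 unstimulated in JAK2 mutant cells, and 10.43 with IFN-gamma and 9.99 in WT replicate 1. It was 10.56 with TNF-alpha and 10.61 unstimulated in TNFRSF1A mutant cells, and 10.04 with TNF-alpha and 10.22 in WT replicate 2. TNFRSF1A mutant arrays were the highest of all and JAK2 mutant arrays the lowest. The widest of its differences between lines was -0.62, for JAK2 mutant cells with cytokine on both arrays, and it was not called.

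**Figure D2:**
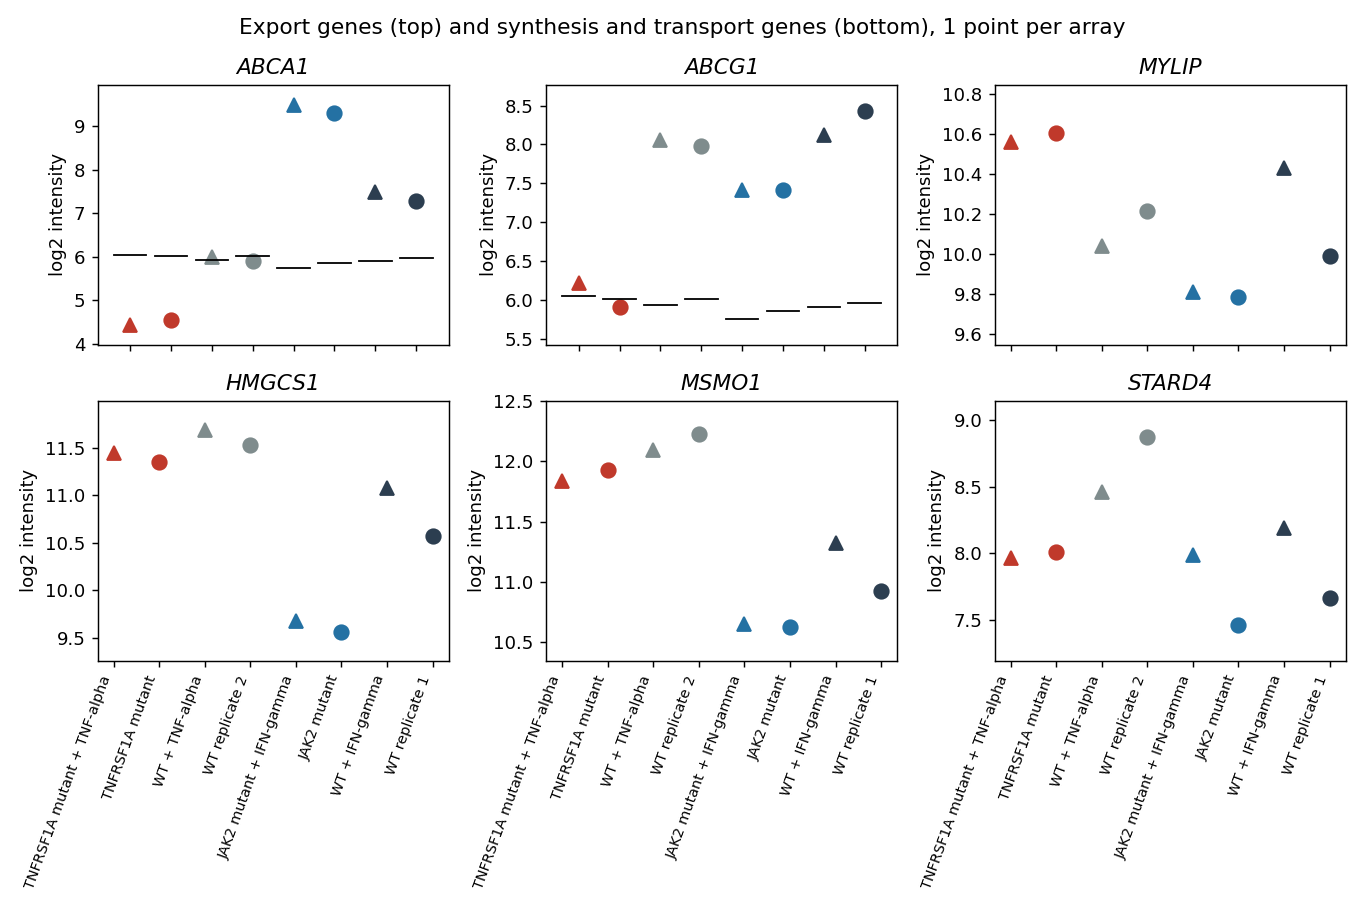
Log2 intensity of 6 genes on the 8 arrays, 1 point per array, with circles for unstimulated cells and triangles for cells with cytokine, and short black bars in the ABCA1 and ABCG1 panels at the upper end of each array's background range. JAK2 mutant points are the highest for ABCA1 (9.49 and 9.31) and the lowest for HMGCS1 (9.68 and 9.57), while both TNFRSF1A mutant points for ABCA1 lie under the bars. The vertical axes do not start at 0 and differ between panels.

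In JAK2 mutant cells most synthesis enzymes stood lower than in WT cells, most of them by less than 2-fold. Over the 18 SREBP-2-type genes the median difference from WT replicate 1 was -0.21, beside 0.03 over all genes compared, and 15 of the 18 lay below 0, beside 44.9% of all genes. With IFN-gamma on both arrays the median was -0.36 and 14 of 18 lay below 0, beside 45.2% of all genes. By the 2-fold rule 1 member was called higher, ABCA1, where 0.226% of all genes were, and 2 were called lower, HMGCS1 and ABCG1, where 1.91% were. With IFN-gamma on both arrays ABCA1 was called higher, beside 0.347% of all genes, and HMGCS1 lower, beside 2.67%. Of the 16 enzymes, 13 were lower on both JAK2 mutant arrays than on all 4 WT arrays, a pattern that 20.1% of all genes showed, and PMVK and TM7SF2 were higher on both, as 29.1% of all genes were. The additive limma fit called 9 of the 18 lower, beside 10.9% of all genes, and none higher, beside 15.1%. The fit of the 7 conditions called no member in this line and next to none of all genes. Its lack of calls therefore says nothing particular of the members.

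HMGCS1, which makes the HMG-CoA from which mevalonate is formed, differed the most of the enzymes. Its log2 intensity was 9.68 with IFN-gamma and 9.57 unstimulated in JAK2 mutant cells, and 11.08 with IFN-gamma and 10.57 in WT replicate 1. TNFRSF1A mutant cells had 11.44 with TNF-alpha and 11.35 unstimulated, and WT replicate 2 and its stimulated array had 11.69 with TNF-alpha and 11.53 without. Both JAK2 mutant arrays were the lowest of the 8. The difference from WT replicate 1 was -1.004, just past 2-fold (2.01-fold), and it was -1.40 with IFN-gamma on both arrays and -1.96 against WT replicate 2. The additive limma fit gave -1.20 (SE 0.10, adjusted p = 0.00329), and the second probe set of the gene gave -1.17.

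Further along the mevalonate part, FDPS, which builds farnesyl diphosphate, was 0.58 lower in JAK2 mutant cells than in WT replicate 1 (12.14 against 12.71), with an adjusted p of 0.00518 in the additive limma fit. IDI1, which interconverts the isoprenoid building blocks, was at -0.32, ACAT2, which joins acetyl-CoA units, at -0.22, and the kinase MVK and the decarboxylase MVD were at -0.19 and -0.13. PMVK, the kinase that acts between MVK and MVD, was the exception at 0.17 and had values of 9.18 with IFN-gamma and 9.23 unstimulated in JAK2 mutant cells, against 8.98 and 9.06 in the matching WT cells. FDPS and HSD17B7 have pseudogene copies in the genome, so that their probe sets may read more than 1 locus.

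In the sterol part, HSD17B7, a reductase of the demethylation steps, was at -0.55 (-0.77 with IFN-gamma on both arrays). SQLE, which oxidises squalene, and EBP, a sterol isomerase, were both at -0.37. MSMO1, the oxidase that removes methyl groups at carbon 4, was at -0.30 without IFN-gamma and at -0.67 with it. DHCR7, the reductase of the last step from 7-dehydrocholesterol, was at -0.23, and SC5D, a sterol desaturase, at -0.20. LSS, which closes the sterol rings, was at -0.12, and NSDHL, a dehydrogenase of the demethylation steps, at -0.09. TM7SF2, a sterol reductase, was at 0.14. Adjusted p-values in the additive limma fit were 0.0120 for HSD17B7, 0.0141 for SQLE, 0.0133 for EBP, 0.0259 for MSMO1 and 0.0389 for SC5D. The shared probe sets of CYP51A1 and LRRD1 gave -0.49 and -0.28 in the same comparison.

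The sensors and transport genes were mixed in JAK2 mutant cells. INSIG2 was at -0.48 (-0.77 with IFN-gamma on both arrays, adjusted p = 0.0116 in the additive limma fit). INSIG1, the brightest member at 13.58 in both JAK2 mutant cells and WT replicate 1, was at 0.00. Its other probe sets gave 0.25 and 0.09, and 0.10 and -0.05 with IFN-gamma on both arrays. SREBF1, which encodes SREBP-1, was 0.52 higher both with and without IFN-gamma (adjusted p = 0.00597, additive limma fit) on its brightest probe set, and the other probe set above the background range gave -0.16. SREBF2 and SCAP were at -0.06 and 0.08. NPC1 and NPC2, which pass cholesterol out of the lysosome, were at -0.21 and -0.40, and STARD4, which carries sterols between membranes, was at -0.20. None of these differences reached 2-fold.

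**Figure D3:**
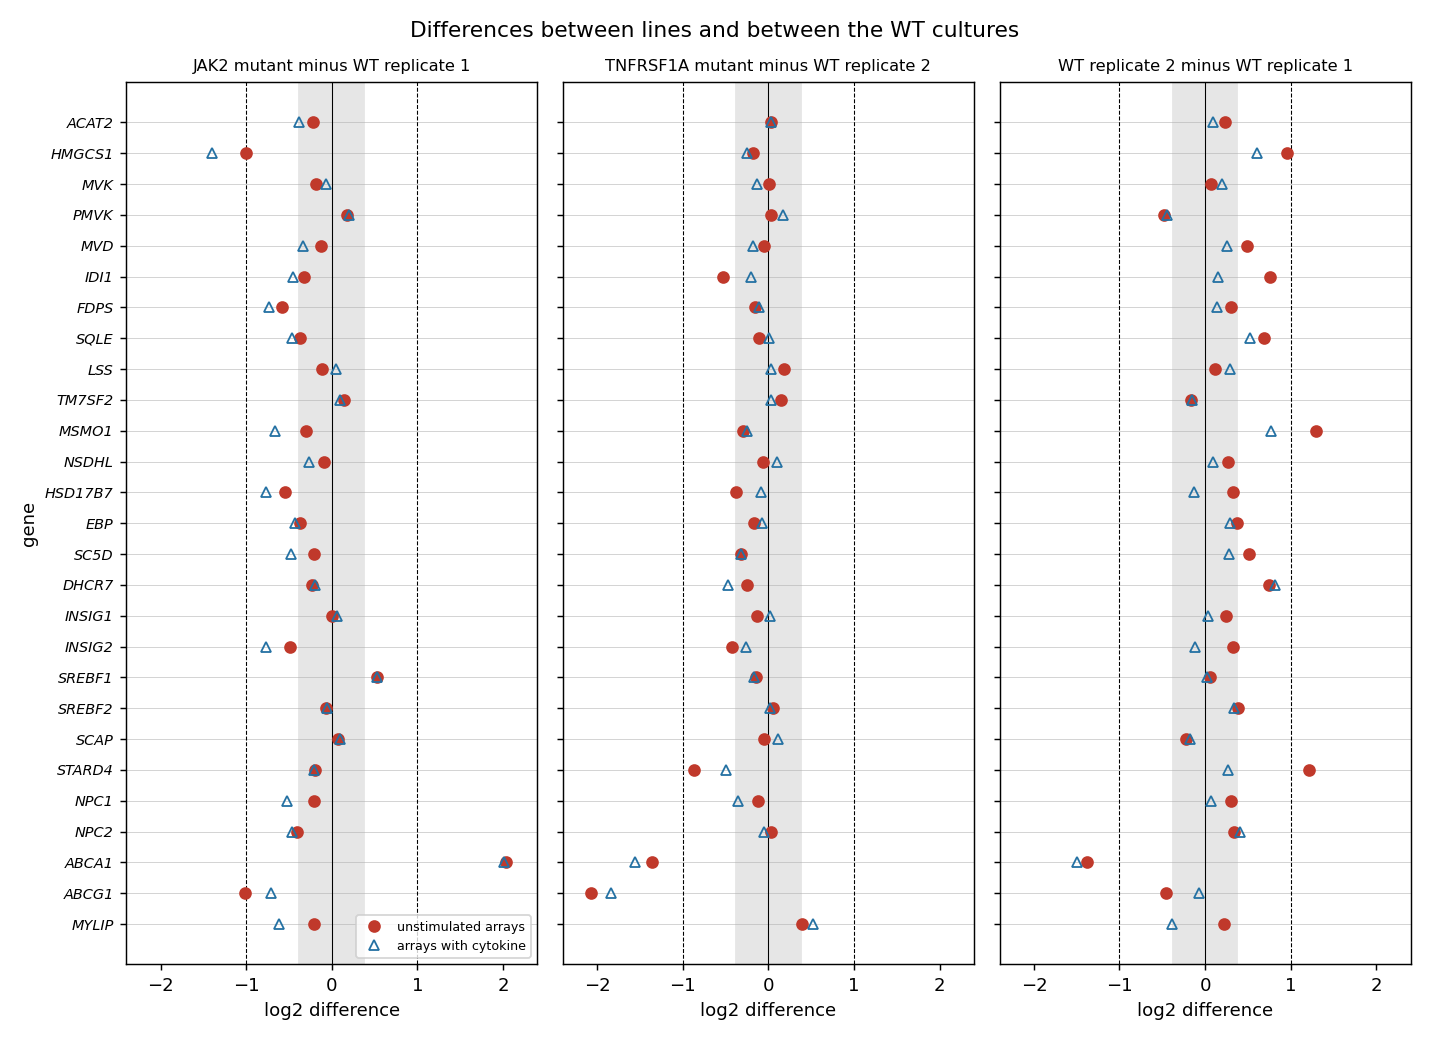
Log2 difference of each gene between JAK2 mutant and WT replicate 1, between TNFRSF1A mutant and WT replicate 2, and between WT replicate 2 and WT replicate 1, with filled circles for the unstimulated arrays and open triangles for the arrays with cytokine. Dashed lines mark 2-fold and the grey band the spread of 0.38. In the JAK2 mutant panel the synthesis genes lie mostly left of 0 with HMGCS1 at -1.004 and ABCA1 at 2.03, and in the panel of the WT replicates they lie mostly right of 0 with MSMO1 at 1.30 and ABCA1 at -1.38.

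TNFRSF1A mutant cells differed from WT replicate 2 in ABCG1, and by less than 2-fold in the synthesis genes. By the 2-fold rule 0 members were called higher, where 0.373% of all genes were, and 2 passed it on the lower side, ABCG1 and ABCA1, where 0.607% did. For ABCA1, at -1.36, both arrays were in the background range, so that this pair of arrays gives no measured difference for it, and with the background range as the floor ABCG1 alone was called. The median over the SREBP-2-type genes was -0.15, beside 0.04 over all genes, with 13 of 18 below 0 where 42.2% of all genes were. With TNF-alpha on both arrays it was -0.10 with 11 of 18 below 0, beside 47.3% of all genes, and 0 members were called higher (0.304% of all genes). ABCG1 was called lower in that reading (0.919% of all genes), and ABCA1, at -1.56 but in the background range in the mutant and 5.99 in WT cells, has no size there either. Against WT replicate 1 the median turned to 0.21. On both TNFRSF1A mutant arrays 9 of the 18 were lower than on both WT arrays of that experiment, where 25.6% of all genes were, and 3 were higher, where 35.5% were. Against all 4 WT arrays 0 of the 18 were lower, beside 12.4% of all genes, and ACAT2 and LSS were higher, beside 15.2%.

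STARD4 differed the most among them, at -0.87 without TNF-alpha and -0.49 with it. In the additive limma fit this was -0.68 (SE 0.10, adjusted p = 0.0284). The fit of the 7 conditions, with the mean of both WT replicates as the control, gave -0.26 and did not call it. The difference of STARD4 from WT replicate 1 was 0.34, in the opposite direction. The additive fit called STARD4, ABCG1 and ABCA1 lower, the last from values in or at the edge of the background range, with 2.84% of all genes called lower, and none higher, with 3.96% called higher. The fit of the 7 conditions called no member in this line and next to none of all genes, which says nothing particular of the members. IDI1 was at -0.53 (-0.20 with TNF-alpha on both arrays, 0.23 against WT replicate 1), INSIG2 at -0.43 and HSD17B7 at -0.38. The shared probe sets of CYP51A1 and LRRD1 gave -0.39 and -0.65 against WT replicate 2, and -0.39 and -0.67 with TNF-alpha on both arrays. HMGCS1, at -0.18, and MSMO1, at -0.29, stayed within the spread on their brightest probe sets. SREBF1, at -0.14, and SREBF2, at 0.06, also stayed within it. The other probe sets of MSMO1 above the background range on all arrays gave -0.55 and -0.62, beyond the spread. With TNF-alpha on both arrays they gave -0.56 and -0.65. The second probe set of HMGCS1 gave -0.23, and -0.40 with TNF-alpha on both arrays.

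WT replicate 2 stood above WT replicate 1 in most synthesis genes and below it in ABCA1. By the 2-fold rule 2 members were called higher, MSMO1 and STARD4, where 0.954% of all genes were, and 1 was called lower, ABCA1, where 1.03% were. The median over the SREBP-2-type genes was 0.35, beside -0.04 over all genes, with 16 of 18 above 0 where 44.2% of all genes were. Between the WT arrays with cytokine it was 0.22 with 15 of 18 above 0, beside 48.8% of all genes, 0 members were called higher (1.01% of all genes) and ABCA1 was called lower (1.15%). Of the 18, 15 were higher on both WT arrays of the TNF-alpha experiment than on both of the IFN-gamma experiment, beside 31.3% of all genes, and PMVK and TM7SF2 were lower on both, beside 38% of all genes. The additive limma fit called 9 of the 18 higher and PMVK lower, with 12.3% of all genes called higher and 16.6% lower. Of the 44 probe sets of SREBP-2-type genes that were above the background range on every array, 37 lay above 0. Several of these read the same gene, so that they add no independent weight to the count of genes. The share over all probe sets was not counted. The comparison of the WT replicates shares WT replicate 1 with the JAK2 mutant comparison and WT replicate 2 with the TNFRSF1A mutant comparison. These comparisons are thus not independent of each other.

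MSMO1 had a log2 intensity of 12.09 with TNF-alpha and 12.22 in WT replicate 2, and 11.32 with IFN-gamma and 10.92 in WT replicate 1. TNFRSF1A mutant cells had 11.84 with TNF-alpha and 11.93 unstimulated, and JAK2 mutant cells had 10.65 with IFN-gamma and 10.62 unstimulated. All 4 arrays of the TNF-alpha experiment, mutant and WT, lay above all 4 of the IFN-gamma experiment. Between the WT replicates the difference was 1.30, and it was 0.77 between the WT arrays with cytokine (additive limma fit: 1.20, SE 0.12, adjusted p = 0.00695). The probe sets of the gene above the background range on all arrays gave 1.30 to 1.62. The remaining probe set gave 1.04, from a value of WT replicate 1 in the background range, so that only its direction is read.

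STARD4 had a log2 intensity of 8.46 with TNF-alpha and 8.87 in WT replicate 2, and 8.19 with IFN-gamma and 7.66 in WT replicate 1. It had 7.97 with TNF-alpha and 8.01 unstimulated in TNFRSF1A mutant cells, and 7.98 with IFN-gamma and 7.46 unstimulated in JAK2 mutant cells. WT replicate 2 was the highest array. The difference between the WT replicates was 1.21 and between the WT arrays with cytokine 0.27, under the spread, so that the call rests on the unstimulated arrays. Its 4 probe sets above the background range gave 0.38 to 1.21, and the mean of all 5 gave 0.62.

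Among the other enzymes the differences between the WT replicates were 0.96 for HMGCS1 (adjusted p = 0.0112, additive limma fit), 0.76 for IDI1, 0.75 for DHCR7, 0.69 for SQLE, 0.51 for SC5D and 0.49 for MVD, each larger than the spread, as 10.4% of all genes were on the higher side. Between the WT arrays with cytokine HMGCS1 was at 0.61, DHCR7 at 0.82 and SQLE at 0.53, and IDI1 at 0.15, SC5D at 0.28 and MVD at 0.25 lay under the spread. PMVK was at -0.48, and the others lay within 0.38 of 0. The shared probe sets of CYP51A1 and LRRD1 gave 0.51 and 0.89. SREBF2 was at 0.39 and SREBF1 at 0.06, and the probe sets of INSIG1 gave 0.25 on the brightest and up to 0.76 on the others. ABCA1 was at -1.38, at least 1.26 lower with the background range as the floor, and ABCG1 was at -0.46 (-0.07 between the arrays with cytokine). The additive limma fit gave -1.33 for ABCA1 (SE 0.09, adjusted p = 0.00556) and -0.44 for ABCG1 (adjusted p = 0.0520).

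The level of the SREBP-2-type genes differed between arrays, and so did a measure of RNA integrity. Their median difference from the gene's mean over the 8 arrays was -0.35 with IFN-gamma and -0.38 unstimulated in JAK2 mutant cells, -0.01 with IFN-gamma and -0.09 in WT replicate 1, 0.07 with TNF-alpha and 0.14 unstimulated in TNFRSF1A mutant cells, and 0.24 with TNF-alpha and 0.34 in WT replicate 2. The ratio of the 3′ to the 5′ control probe set of actin was 6.47 and 5.74 on these JAK2 mutant arrays, 4.81 and 4.41 on the WT arrays of that experiment, 5.53 and 4.51 on the TNFRSF1A mutant arrays, and 4.81 and 3.27 on the WT arrays of the TNF-alpha experiment. It was thus high on the JAK2 mutant arrays, where the synthesis genes were lowest, and lowest in WT replicate 2, where they were highest. The TNFRSF1A mutant array with TNF-alpha had a higher ratio than the WT arrays of the IFN-gamma experiment and also a higher level of these genes. Markers also differed between the arrays. CD3D was at 8.92 with IFN-gamma and 8.83 unstimulated in JAK2 mutant cells, 9.31 and 9.33 in the matching WT cells, 8.71 with TNF-alpha and 8.74 unstimulated in TNFRSF1A mutant cells, and 10.03 and 9.90 in the matching WT cells. CEBPA, in the same order, was at 8.87 and 8.94 in JAK2 mutant cells, 7.83 and 8.26 in the matching WT cells, 8.37 and 8.44 in TNFRSF1A mutant cells, and 7.27 and 7.43 in the matching WT cells. CD3D was thus lower and CEBPA higher in both mutants than in WT cells, and the part of RNA integrity and of these markers in the result was not tested. Of the macrophage lipid-handling markers, CD163, MARCO and CD36 were in the background range on all arrays. CD68 was above it on all arrays, at 7.74 and 7.69 in JAK2 mutant cells and 7.37 and 7.30 in the matching WT cells. In TNFRSF1A mutant cells it was 7.37 and 7.28, and in the matching WT cells 7.82 and 7.84. GPNMB was at 6.07 and 6.12 in JAK2 mutant cells and 6.38 and 6.13 in the matching WT cells. In TNFRSF1A mutant cells it was 5.83 and 6.02, and in the matching WT cells 6.06 and 6.27. The summed log2 level of the 5 macrophage markers ran from 25.98 to 27.04 over the 8 arrays. Since 3 of the 5 were in the background range on all arrays, this sum does not rank the arrays.

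Neither cytokine moved a member by 2-fold in any line within 6 hours. In JAK2 mutant cells with IFN-gamma and in TNFRSF1A mutant cells with TNF-alpha 0% of all genes were called in either direction, whereas in WT cells IFN-gamma raised 0.607% past 2-fold and lowered 0%, and TNF-alpha raised 0.312% and lowered 0.00867%. After IFN-gamma the median over the SREBP-2-type genes was -0.01 in JAK2 mutant cells and 0.11 in WT cells, where 12 of 18 lay above 0, beside 42.1% of all genes. After TNF-alpha it was -0.02 in TNFRSF1A mutant cells and -0.07 in WT cells, where 13 of 18 lay below 0, beside 48% of all genes. With the other WT array as control the WT medians turned to -0.26 after IFN-gamma and 0.26 after TNF-alpha. The limma fits called 0 members, and next to none of all genes. The additive fit called 0 of 11529 genes for either cytokine, with 938 genes and 3 members at an unadjusted p under 0.05 for IFN-gamma and 473 genes and 0 members for TNF-alpha. It gives mutant and WT cells 1 shared term for each cytokine, so that a response of WT cells alone enters its spread. Its 0 therefore cannot speak to a response found in WT cells only. The fit of the 7 conditions called 1 gene for each cytokine in WT cells (0.00867%), 0 in the mutants and 0 for a difference of response between mutant and WT, where 61 genes for IFN-gamma and 40 for TNF-alpha, and 0 members, had an unadjusted p under 0.05. The counts therefore say nothing particular of the members.

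**Figure D4:**
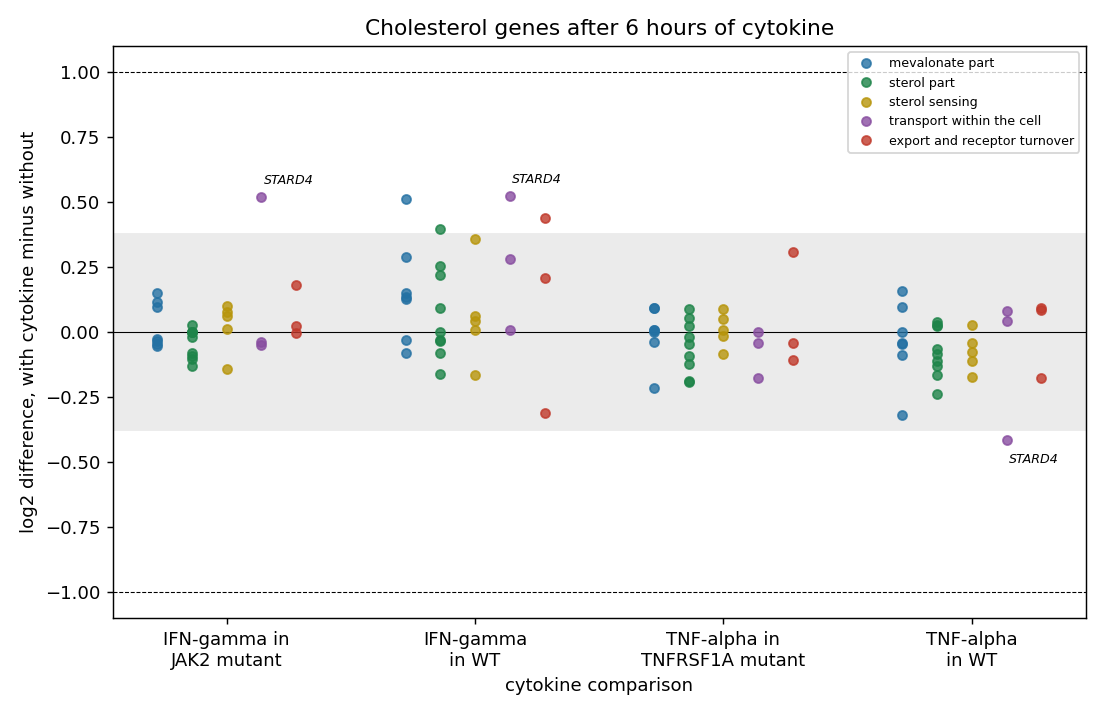
Log2 difference of each of the 27 genes after 6 hours of cytokine, stimulated minus unstimulated, for IFN-gamma in JAK2 mutant and WT cells and for TNF-alpha in TNFRSF1A mutant and WT cells, with 1 point per gene coloured by role. All points lie between the dashed lines at 2-fold, most of them within the grey band of 0.38, and STARD4 is at 0.52 after IFN-gamma in both lines and at -0.41 after TNF-alpha in WT cells.

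After IFN-gamma STARD4, at 0.52, was the only member beyond the spread in JAK2 mutant cells, as 0.971% of all genes were on the higher side, and HMGCS1 was at 0.12, MSMO1 at 0.03 and MYLIP at 0.02. In WT cells 4 of the 27 members lay beyond the spread on the higher side, beside 3.01% of all genes, STARD4 at 0.52, HMGCS1 at 0.51, MYLIP at 0.44 and MSMO1 at 0.40. The 4 probe sets of STARD4 above the background range gave 0.08 to 0.52 in JAK2 mutant cells and 0.12 to 0.52 in WT cells. After TNF-alpha STARD4 was at -0.04 in TNFRSF1A mutant cells and at -0.41 in WT cells, the only member beyond the spread there, where 0.659% of all genes lay beyond it on the lower side. ABCA1 was at 0.18 in JAK2 mutant and 0.21 in WT cells after IFN-gamma. ABCG1 was at -0.01 in JAK2 mutant and -0.31 in WT cells after IFN-gamma, and at 0.31 in TNFRSF1A mutant and 0.08 in WT cells after TNF-alpha. The 0.31 starts from an unstimulated value in the background range. Each of these values comes from 1 pair of arrays.

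Neighbouring pathways were read from lists of further genes. Of the 13 SREBP-1-type genes of fatty acid synthesis 12 were measured, and their median was 0.03 in JAK2 mutant cells against WT replicate 1, 0.10 in TNFRSF1A mutant cells against WT replicate 2, and -0.31 between WT replicate 2 and WT replicate 1. None was called by the 2-fold rule on the unstimulated arrays. GPAM, which starts glycerolipid synthesis, was 0.72 higher in JAK2 mutant cells than in WT replicate 1 and 1.09 higher with IFN-gamma on both arrays. Of the 7 LXR receptors and targets, 4 were compared, none was called, and their differences from WT replicate 1 in JAK2 mutant cells ran from -0.46 for RXRA, the partner receptor of LXR, to 0.26 for PLTP, a phospholipid transfer protein. Of the 8 genes of the isoprenoid branch 7 were measured and none was called.

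Of the 9 genes of sterol storage, lysosome and oxysterols, CH25H was called, lower in JAK2 mutant cells, and the other 8 were not called in any comparison. CH25H makes 25-hydroxycholesterol, an oxysterol that holds back SREBP-2 processing and activates LXR. Its log2 intensity was 5.25 with IFN-gamma and 5.34 unstimulated in JAK2 mutant cells, both in the background range, against 7.48 with IFN-gamma and 7.25 in WT replicate 1. In the other experiment it was 7.98 with TNF-alpha and 7.82 unstimulated in TNFRSF1A mutant cells, and 7.80 with TNF-alpha and 7.59 in WT replicate 2. It was thus at least 1.39 lower in JAK2 mutant cells than in WT replicate 1, and those cells were the only line with values in the background range.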

How the data were processed

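RNA of 8 samples of KBM7 cells was measured on 1-colour Affymetrix PrimeView arrays, 1 array for each sample, per the labels. For each of 49395 probe sets the authors deposited a normalized intensity, for which the submitters' processing notes name RMA and Affymetrix Expression Console 1.1. RMA gives all arrays 1 common distribution, which would hide a general rise or fall. The deposited intensity is on a linear scale, judged from the values (array medians from 63.9 to 66.9), and log2 was taken of it here. The number of arrays limits the precision.

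Probe sets were named through the platform annotation, with symbols updated against RefSeq (GRCh38.p14): 44994 had 1 gene, 1832 several and 2569 none there. Sequences are RefSeq's. A gene's value is its brightest single-gene probe set, and genes reaching a log2 value of 6 (intensity 64) were compared. Groups and controls follow the labels. limma 3.58.1 in R 4.3.3 was used for the fits, tested on simulated data, with an adjusted p threshold of 0.05 (Benjamini-Hochberg) and prior degrees of freedom of 4.017 (7 conditions, 1 residual) and 3.184 (additive, 2 residual). Tables were handled with pandas 2.3.3 in Python 3.11.15.

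Alternatives were other thresholds, level filters, scalings, probe set rules, controls and readings with cytokine; the rule of 2-fold in both readings and the counts of arrays without overlap were added after the data were seen. All members were named; of the other lists, genes past 2-fold in any comparison, up to 4 a list; genes given beside them as the ends of a list's range were named after their values were seen. The members and lists were chosen with earlier results of these data known. Some genes are not reported here.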

Additional observations from a re-analysis of the deposited data

How the results depend on the processing

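Of 218 recomputed counts and medians, 190 stayed within tolerance (a count within 1.5 times, a median within the spread of 0.38, whatever its sign) and 28 moved, and no called difference turned its sign. The counts of called members are small, so 1 gene moves them. Under the other thresholds, probe set rules and control arrays the share over all genes was not counted. Such a change can move the calls of all genes too. These counts therefore show how the calls depend on the setting and nothing particular of the members. At 1.5-fold 6 members were higher in WT replicate 2 than in WT replicate 1. At 3-fold 0 were lower in JAK2 mutant cells, 1 was lower in TNFRSF1A mutant cells, and 0 were higher and 0 lower in WT replicate 2. With the mean of a gene's probe sets, 0 were higher and 1 lower in JAK2 mutant cells, 1 was lower in TNFRSF1A mutant cells and 0 were lower in WT replicate 2. Without WT replicate 1 (the other WT array as control), 1 was higher and 5 were lower in JAK2 mutant cells with an SREBP-2-type median of -0.73, and 1 was higher and 0 were lower after IFN-gamma in WT cells with a median of -0.26. Without WT replicate 2, 1 was higher and 2 were lower in TNFRSF1A mutant cells with a median of 0.21, and 2 were higher and 1 was lower after TNF-alpha in WT cells with a median of 0.26. The medians of TNFRSF1A mutant cells and of both WT responses thus changed sign with the control array, the small ones of the 2 mutant responses changed it under 1 of 5 alternatives each, while that of JAK2 mutant cells kept it in 8 of 8 alternatives (-0.73 to -0.20) and that of WT replicate 2 against replicate 1 in 6 of 6 (0.22 to 0.69). With the mean of both WT arrays as control, 1 was lower in JAK2 mutant cells. Read with cytokine on both arrays, or required in both readings, 1 was lower in JAK2 mutant cells and 0 were higher in WT replicate 2. With the background range as the floor, 1 was lower in TNFRSF1A mutant cells. The limma fit of the 7 conditions called no member in either mutant, and next to none of all genes. The additive limma fit called 2 higher and 12 lower in JAK2 mutant cells, beside 15.1% and 10.9% of all genes. In WT replicate 2 it called 11 higher and 2 lower, beside 12.3% and 16.6%. The causes were not tested, beyond what each alternative changes by its construction. Loess and median scaling, both level filters and leaving out cross-hybridising probe sets moved no count or median. No paired analysis was possible because the groups compared share fewer than 2 replicate numbers. The additive limma fit sets the stimulated against the unstimulated array within each line, which is not a pairing by replicate number.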
